A study of Mus musculus with 166 samples.

Results

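Small RNA of the cerebellum was compared between heterozygous Q175 mice and wild-type (WT) mice at 6 months of age, to ask which microRNAs differ in level in the line with the longest Htt CAG repeat of the study. The comparison held 16 of the 166 libraries of the series, 8 of each group, chosen by the labelled line and age alone. Q175 mice carry 1 endogenous Htt allele and 1 allele with an inserted human HTT exon whose CAG repeat arose by spontaneous expansion in the Q140 line, on a C57BL/6 background, and were labelled as housed with other Q175 mice. The 6-month WT mice were littermates of the Q20 line on the same background, carry no inserted allele and shared cages with Q20 mice. Each group had 4 females and 4 males. The library names carried a separate code for each combination of line and sex. The CAG repeat, the breeding line, the cage and this code therefore cannot be told apart. Htt is not a microRNA and was not measured, so the genotype labels have no check in these counts. Q20 libraries of the same age were of another library series and were not used as a control.

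MicroRNAs are short RNAs that guide Argonaute proteins to messenger RNAs, mostly by pairing of their seed, the bases 2 to 8 from the 5′ end, and so lower the level or the translation of the target. They are cut from hairpins, and hairpins that lie close together are often parts of the same primary transcript. The cerebellum is made up mainly of granule neurons, with Purkinje cells, interneurons, Bergmann glia and oligodendrocytes. An expanded CAG repeat in HTT causes Huntington disease, in which the striatum is affected most.

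All 16 libraries were of the same library series. Total counts of microRNA reads were 4361205 to 5573009 in Q175 and 4886425 to 5787324 in WT libraries. By the connectivity rule of the study (Z.k under -5) no library was left out, with values of -2.45 to -1.25. The rule was applied over all lines of 6 months, most of them of the other library series. It therefore does not test for a library that stands apart within the 16. Between 531 and 584 features in Q175 and 548 and 584 features in WT libraries had a count above 0. The neuronal microRNAs Mir9-2 and Mir124a-1 had medians of 36392 and 10556 CPM in Q175 and 34029 and 11467 CPM in WT libraries (CPM, counts scaled to a common library size after TMM normalization). The libraries ran in lanes 5 and 6, which were not balanced: 7 of 8 Q175 libraries and 4 of 8 WT libraries were in lane 5. The second principal component (12.9% of variance) ran with lane (68.1% of it) and with line (47.2%). In the WT group alone, 7 of 346 microRNAs (2.02%) differed between lanes, and none of them was among those called between Q175 and WT. With 4 WT libraries in each lane this test can miss lane differences, so no conclusion about the calls is drawn from it. The calls lost with a lane term, or within lane 5 (7 Q175 and 4 WT libraries), are named after the count of calls.

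The mature sequences behind the main results are shown first, 5′ to 3′, from RefSeq (GRCm38.p6), with the seed in capitals. RefSeq entries were matched by symbol for 67 of the 79 called microRNAs. Counts were per hairpin and did not separate its arms, so the arm shown is the one in common use, and both arms are shown for Mir344-2. The first pair is shown because both hairpins fell and share a seed, at chr11:75173388-75173478 (Mir212) and chr11:75173682-75173747 (Mir132), on the plus strand in an intron of 1700016P03Rik:
mmu-miR-212-3p: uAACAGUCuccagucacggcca
mmu-miR-132-3p: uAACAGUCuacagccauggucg
The let-7 sequences share a seed, and 5 of the 10 tested hairpins of the family fell. They are let-7i from chr10:122985640-122985724, miR-98 and let-7f from a pair in an intron of Huwe1, let-7a from chr13:48538179-48538272 and let-7g from an intron of Wdr82:
mmu-let-7i-5p: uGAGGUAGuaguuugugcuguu
mmu-miR-98-5p: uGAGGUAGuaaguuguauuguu
mmu-let-7a-5p: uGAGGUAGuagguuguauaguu
mmu-let-7f-5p: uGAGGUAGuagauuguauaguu
mmu-let-7g-5p: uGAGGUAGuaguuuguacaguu
Next are Mir99b and Mir125a, neighbours in Spaca6 that both fell. With them are miR-100, which fell, and miR-99a, which shares the seed of miR-99b and miR-100 and was not called:
mmu-miR-99b-5p: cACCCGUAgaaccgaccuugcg
mmu-miR-100-5p: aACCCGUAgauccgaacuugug
mmu-miR-99a-5p: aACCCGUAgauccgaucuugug
mmu-miR-125a-5p: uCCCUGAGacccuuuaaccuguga
Also shown are Mir344-2 (chr7:61940027-61940106) and Mir484 (chr16:14159626-14159692), which fell with no overlap between groups:
mmu-miR-344-5p: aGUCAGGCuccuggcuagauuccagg
mmu-miR-344-3p: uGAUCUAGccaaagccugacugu
mmu-miR-484: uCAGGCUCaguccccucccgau
The last set holds microRNAs that rose, namely Mir127 and the neighbours Mir379 and Mir411 of the Dlk1-Dio3 region, Mir335, Mir218-2, Mir137 and Mir181d:
mmu-miR-127-3p: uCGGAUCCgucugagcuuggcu
mmu-miR-379-5p: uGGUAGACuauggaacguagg
mmu-miR-411-5p: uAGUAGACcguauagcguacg
mmu-miR-335-5p: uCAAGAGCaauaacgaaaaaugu
mmu-miR-218-5p: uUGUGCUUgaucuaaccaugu
mmu-miR-137-3p: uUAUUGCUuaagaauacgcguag
mmu-miR-181d-5p: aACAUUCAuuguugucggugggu
miR-212-3p and miR-132-3p differ at 5 of their positions, all outside the seed. Against let-7a, let-7f differs at 1 position, miR-98 and let-7g at 2 and let-7i at 4. The 36-nt reads of hairpins with identical mature stretches cannot be assigned to a single hairpin with certainty.

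Of 346 microRNAs that passed the filter on low counts, 79 differed between Q175 and WT at 6 months (22.8%), with 42 higher (12.1%) and 37 lower (10.7%) in Q175, at a Benjamini-Hochberg false discovery rate (FDR) under 0.05 in edgeR's quasi-likelihood test with sex as a covariate. The higher group was dominated by 1 genomic region: 26 of the 42 lay in the imprinted Dlk1-Dio3 region of chromosome 12, and none of the 37 lower ones did. The differences were small. The median log2 fold change was 0.22 among the 42 that were higher and -0.20 among the 37 that were lower, and 73 of 79 were under 0.5 in size. The called microRNAs that were higher lay in 17 groups of neighbours within 200 kb of each other, and those that were lower in 32, against 211 for all tested. For 14 microRNAs every Q175 library was above every WT library (4.05% of those tested), and for 7 every Q175 library was below (2.02%).

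**Figure D1:**
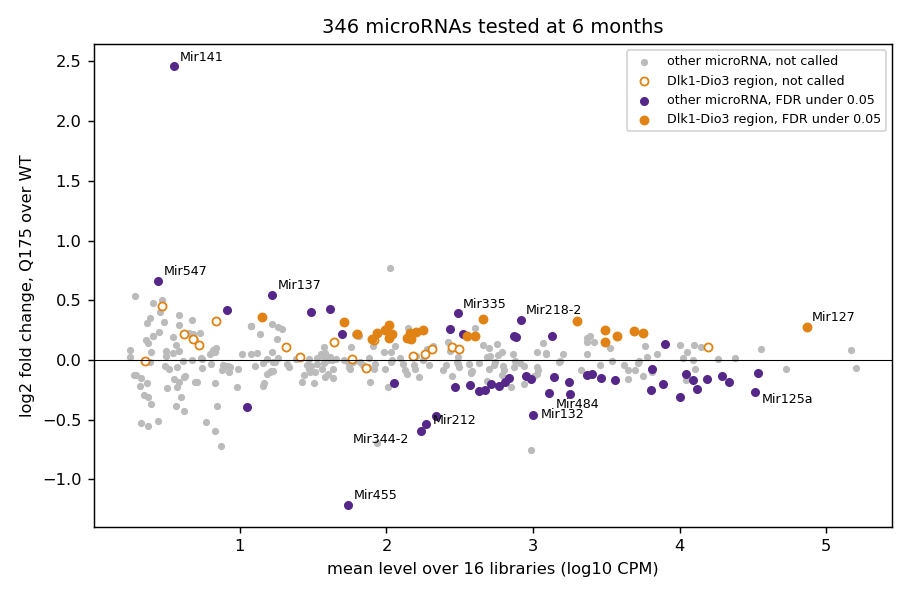
Log2 fold change of Q175 over WT at 6 months (vertical axis) against the mean level over the 16 libraries in log10 CPM (horizontal axis), a point for each of the 346 microRNAs tested, with filled orange and purple points at an FDR under 0.05. The 26 called Dlk1-Dio3 microRNAs all lie above 0, while Mir455 (-1.21) and Mir141 (2.46, and 1.60 without Q175 M2) lie farthest from it.

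The split between higher and lower calls moved with the scaling. It was 43 higher and 15 lower with upper quartile scaling, 51 and 28 when TMM was computed outside the Dlk1-Dio3 region, and 43 and 44 with RLE. The median log2 fold change of all tested microRNAs was -0.01 with TMM and 0.02 with upper quartile scaling, and none of the 79 changed sign under either of the first 2 scalings. With a lane term 79 microRNAs were called, 67 of them among the 79, and within lane 5 45 were called, 42 of them among the 79. None of the 79 changed sign in either. The 12 without a call under the lane term were Mir665 among the Dlk1-Dio3 microRNAs, Mirlet7f-2, Mirlet7g, Mir101a, Mir328, Mir455, Mir708, Mir143, Mir130b, Mir141, Mir151 and Gm25301. Within lane 5, which holds fewer libraries, 15 of the 42 higher calls were lost, those of Mir130a, Mir3071, Mir540, Mir671, Mir337, Mir128-1, Mir381, Mir153, Mir488, Mir431, Mir210, Mir665, Mir495, Mir547 and Mir30c-1. There 22 of the 37 lower calls were lost, those of Mir425, Mir98, Mir129-1, Mir219a-2, Mir27b, Mir598, Mir30d, Mir338, Mirlet7a-1, Mir129-2, Mirlet7f-2, Mir101a, Mir328, Mir455, Mir708, Mir143, Mir130b, Gm25301, Mir151, Mir23b, Mir100 and Mirlet7g. With upper quartile scaling 0 of the 42 higher and 22 of the 37 lower calls were lost, among them Mir192, Mir486, Mir34a and Mir221, which were called within lane 5.

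Both members of the Mir212/Mir132 cluster fell, and Mir132 and Mir344-2 had the lowest FDR of all microRNAs tested. These microRNAs are processed from a shared transcript that neuronal activity and the transcription factor CREB induce, and in mouse neurons miR-132 acts on dendrite growth and synapses. The lowest, median and highest levels of Mir212 were 139.5, 150.8 and 166.1 CPM in Q175 libraries, against 190.4, 228.5 and 244.8 CPM in WT libraries. Its log2 fold change was -0.54 ± 0.06 (SE, n = 8 each, edgeR FDR 6.21e-06). Mir132 had 751.5, 830.9 and 949.8 CPM in Q175 and 1058, 1152 and 1319 CPM in WT libraries, a log2 fold change of -0.46 ± 0.04 (FDR 1.16e-06). Every Q175 library was below every WT library for both. With a lane term the log2 fold changes were -0.53 ± 0.06 and -0.42 ± 0.04, and within lane 5 both still passed (FDR 0.00252 and 0.00126).

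**Figure D2:**
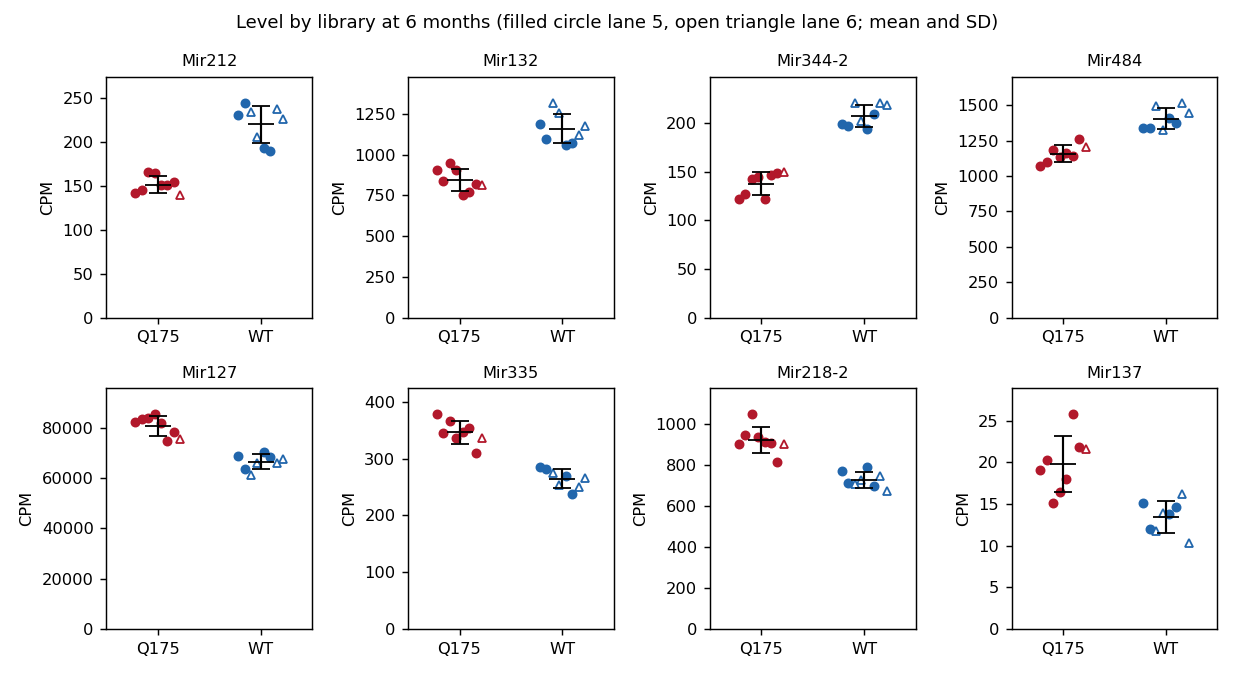
Level in CPM (vertical axis, from 0) of 8 microRNAs in each of the 8 Q175 (left, red) and 8 WT (right, blue) libraries of 6 months, with filled circles for lane 5, open triangles for lane 6, and black bars for the mean and SD. For Mir212, Mir132, Mir344-2 and Mir484 all Q175 points lie below all WT points, for Mir127, Mir335 and Mir218-2 they lie above, and for Mir137 the groups overlap.

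Mir344-2, a brain-enriched microRNA in an intron of A330076H08Rik, was the largest fall to pass the test after Mir455. It had 122.3, 143.7 and 149.6 CPM in Q175 and 193.7, 206.4 and 221.0 CPM in WT libraries, with no overlap between groups. The log2 fold change was -0.59 ± 0.05 (FDR 1.16e-06), and -0.55 ± 0.05 with a lane term. Its hairpin shares a run of 39 bases with Mir344 or Mir344b, so reads may have been divided among them. Mir344, which was in the list, had no count in any of the 16 libraries. Mir344b had a log2 fold change of -0.20 ± 0.08 (FDR 0.098) and Mir344d-1 of -0.23 ± 0.22 (FDR 0.539). Of 3 tested miR-344 members 1 thus fell, against 10.7% of all tested. Mir484, which the study's text names, had 1071, 1154 and 1262 CPM in Q175 and 1324, 1391 and 1517 CPM in WT libraries. Its log2 fold change was -0.28 ± 0.04 (FDR 3.35e-05), again with no overlap.

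The microRNAs in Spaca6 on chromosome 17 fell too. This cluster holds Mir99b, Mirlet7e and Mir125a, and let-7 and miR-125 are known from nematodes as regulators of developmental timing. Mir99b (chr17:17830188-17830257) had 11600, 11947 and 12516 CPM in Q175 and 13412, 13825 and 15899 CPM in WT libraries, with no overlap and a log2 fold change of -0.24 ± 0.03 (FDR 7.64e-05). Mir125a had 27149, 29959 and 31984 CPM in Q175 and 31856, 35582 and 38062 CPM in WT libraries, so that the highest Q175 library passed the lowest WT library by little, with a log2 fold change of -0.27 ± 0.04 (FDR 2.26e-04). Between them lies Gm25927 (chr17:17830343-17830459), annotated on the minus strand over the hairpin of Mirlet7e on the plus strand, which was not analysed here under its own name. It had 1531, 1589 and 1808 CPM in Q175 and 1739, 1996 and 2066 CPM in WT libraries and a log2 fold change of -0.28 ± 0.04 (FDR 7.64e-05). Reads were strand-specific, but the strand setting of the counting is not given in the sources used here, so reads of Gm25927 and Mirlet7e cannot be told apart. In all, 26 tested microRNAs lie over a microRNA gene of the opposite strand, 10 of them called, against 22.8% of all tested. Beside Gm25927 these were Gm25750 (over Mir380), Gm25252 (Mir376a), Gm25301 (Mir378a), Mir3071 (Mir136), Mir337 (Mir3544), Mir219a-2 (Mir219b), Mir338 (Mir3065), Mir486 (Mir3107) and Mir129-2 (Mir129b).

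Of the miR-99 and miR-125 list, 3 of 6 tested members fell, against 10.7% of all tested, and none rose. The count was 2 within lane 5 and 2 with upper quartile scaling. Beside Mir99b and Mir125a this was Mir100 (log2 fold change -0.12 ± 0.04, FDR 0.0418), whose call was lost when any 1 of 12 libraries was left out, at an FDR of up to 0.0865. Mir99a, whose seed is that of Mir99b and Mir100, had 1213, 1241 and 1314 CPM in Q175 and 1171, 1212 and 1241 CPM in WT libraries and a log2 fold change of 0.05 ± 0.02 (FDR 0.158). Mir125b-1, with the seed of Mir125a, had -0.01 ± 0.05 (FDR 0.9). Whether members with the same seed differ from each other was not tested.

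The let-7 family, which is high in mature neurons and represses growth genes, held 5 falls and no rise among 10 tested members, against 10.7% lower over all tested, with a median log2 fold change of -0.12 against -0.01 for all tested. Mirlet7i had 5458, 5735 and 6743 CPM in Q175 and 6041, 7133 and 7802 CPM in WT libraries and a log2 fold change of -0.25 ± 0.05 (FDR 0.00204). The highest Q175 library, M4, was the single Q175 library of lane 6. Mir98 had 410.4, 423.8 and 473.4 CPM in Q175 and 443.7, 507.6 and 583.0 CPM in WT libraries, with -0.25 ± 0.06 (FDR 0.00373), and its neighbour Mirlet7f-2 had -0.14 ± 0.04 (FDR 0.018). The groups overlapped for all 3. Mirlet7a-1 (log2 fold change -0.17 ± 0.05) and Mirlet7g (-0.12 ± 0.04) also fell, while Mirlet7b had -0.04 ± 0.05 (FDR 0.63). The count of let-7 falls was 4 with a lane term, 1 within lane 5 and 2 with upper quartile scaling.

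Further falls involved neighbours of other transcripts. Mir23b and Mir27b, from the same transcript on chromosome 13, had log2 fold changes of -0.13 ± 0.04 and -0.16 ± 0.04 (FDR 0.0389 and 0.00626). Of 5 tested members of their list 2 fell, against 10.7% of all tested. The count was 0 within lane 5 and 0 with upper quartile scaling. The call of Mir23b was lost when any 1 of 9 libraries was left out, at an FDR of up to 0.0795. Mir425 had 241.3, 266.1 and 295.4 CPM in Q175 and 287.6, 317.1 and 346.6 CPM in WT libraries and a log2 fold change of -0.23 ± 0.05 (FDR 0.0015). Mir129-1 and Mir129-2, which give the same mature miR-129-5p from chromosomes 6 and 2, fell to a similar extent (-0.15 ± 0.03 and -0.16 ± 0.04, FDR 0.00373 and 0.018). Mir320 had 574.8, 600.3 and 623.3 CPM in Q175 and 633.9, 673.9 and 742.3 CPM in WT libraries, with no overlap and a log2 fold change of -0.18 ± 0.04 (FDR 0.00136). Mir34a, a target of the tumour suppressor p53, fell (-0.21 ± 0.06, FDR 0.0142). Mir30d fell (-0.11 ± 0.03, FDR 0.0114) and Mir30c-1 rose (0.19 ± 0.06, FDR 0.0314), with 4 of 6 tested miR-30 members not called. Without Q175 library M1 or M3 the call of Mir30d was lost (FDR up to 0.0725), and that of Mir30c-1 was lost when any 1 of 8 libraries was left out (FDR up to 0.071).

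The fall with the largest fold was that of Mir455, from an intron of the cartilage collagen gene Col27a1. Levels were 20.2, 23.5 and 73.6 CPM in Q175 and 24.1, 78.4 and 123.0 CPM in WT libraries, so that the groups overlapped widely, and the log2 fold change was -1.21 ± 0.37 (FDR 0.0248). With a lane term it was -0.89 ± 0.43 (FDR 0.159) and within lane 5 -0.55 ± 0.46 (FDR 0.508), and the call was also lost without Q175 M2, WT F3 or WT M4 (FDR up to 0.0591). Mir130b had 7.137, 9.319 and 12.8 CPM in Q175 and 8.739, 12.6 and 15.3 CPM in WT libraries (-0.39 ± 0.13, FDR 0.0321), and its call was lost under the lane term and when any 1 of 7 libraries was left out (FDR up to 0.0619). Mir130a, which has the same seed, rose. It had 698.4, 802.9 and 833.1 CPM in Q175 and 643.9, 684.5 and 761.9 CPM in WT libraries, with a log2 fold change of 0.20 ± 0.04 (FDR 0.00247).

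The Dlk1-Dio3 region carries a large microRNA cluster, transcribed from the maternal allele together with the noncoding RNAs Meg3, Rian and Mirg. From Mir770 to Mir3072 (chr12:109563692-109747960) 44 of its 55 listed hairpins were tested. Of these 26 rose, against 12.1% of all tested, none fell and 42 of 44 had a positive log2 fold change. The median was 0.19 against -0.01 for all tested microRNAs and -0.03 for the 302 outside the region. Summed over the region, the level was 119049 to 133054 CPM in Q175 and 100063 to 114329 CPM in WT libraries, with no overlap between groups. Most of this sum came from the anti-Rtl1 list, Mir127 above all, at 95621 to 107153 CPM in Q175 and 79354 to 91411 CPM in WT libraries. The Mir379 to Mir410 list had 22173 to 24554 and 18377 to 21661 CPM, without overlap. The Meg3 and Rian list had 795.5 to 878.6 and 698.8 to 829.8 CPM, with overlap. The count of rises was 28 with a lane term, 21 within lane 5, 26 with upper quartile scaling and 27 with TMM computed outside the region. The 2 members with a negative value were Mir134 (-0.06 ± 0.07) and Mir493 (-0.01 ± 0.18), neither of them called (FDR 0.616 and 0.971).

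**Figure D3:**
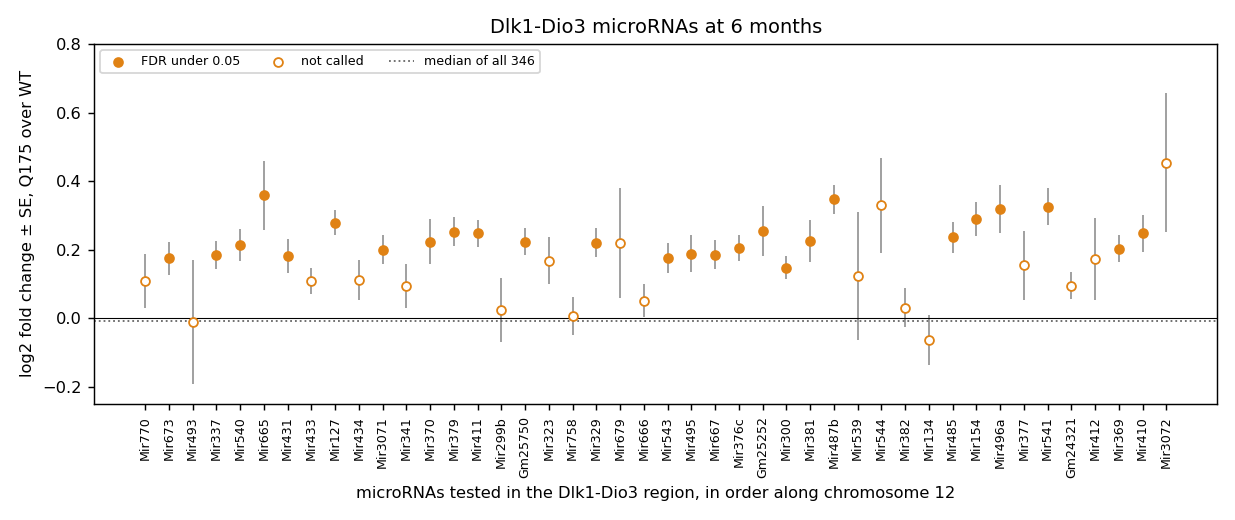
Log2 fold change of Q175 over WT at 6 months with its SE (vertical axis) for the 44 tested microRNAs of the Dlk1-Dio3 region, in order along chromosome 12 (horizontal axis), filled at an FDR under 0.05, with the median of all 346 as a dotted line. Rises are spread along the whole region, with 26 filled points, all above 0.

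The anti-Rtl1 microRNAs lie opposite the coding sequence of the retrotransposon-derived gene Rtl1, which is expressed from the paternal allele and whose transcript they cut. Of 5 tested, 3 rose, against 12.1% of all tested, and 1 rose within lane 5. Mir127 had 74639, 82032 and 85289 CPM in Q175 and 61313, 66868 and 70151 CPM in WT libraries, with no overlap and a log2 fold change of 0.28 ± 0.04 (FDR 3.92e-05). Mir3071 (0.20 ± 0.04, FDR 0.00271) and Mir431 (0.18 ± 0.05, FDR 0.0142) rose less. Mir3071 is annotated in Rtl1 on the minus strand, over Mir136 on the plus strand, and reads of these cannot be told apart either. Mir434 had 15349, 15736 and 17874 CPM in Q175 and 13516, 14633 and 19252 CPM in WT libraries, with 0.11 ± 0.06 (FDR 0.196), and Mir433 had 0.11 ± 0.04 (FDR 0.0547).

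Of the 8 tested microRNAs near Meg3 and within Rian, 5 rose, against 12.1% of all tested, with a median of 0.18. Within lane 5 the count was 2. Mir337 had 145.9, 153.0 and 167.0 CPM in Q175 and 126.0, 134.7 and 147.3 CPM in WT libraries (0.18 ± 0.04, FDR 0.00368). Mir540 had 0.21 ± 0.05 (FDR 0.00341), Mir673 0.17 ± 0.05 (FDR 0.0145) and Mir370 0.22 ± 0.07 (FDR 0.0191). The largest fold was that of Mir665, at 13.3, 15.8 and 18.3 CPM in Q175 and 9.81, 12.2 and 17.1 CPM in WT libraries (0.36 ± 0.10, FDR 0.016), which had an FDR of 0.051 with a lane term. Mir341 from Rian had 0.09 ± 0.06 (FDR 0.345).

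The long array from Mir379 to Mir410, processed largely from Mirg and its upstream transcript, held 28 tested members of its list. Of these 16 rose, against 12.1% of all tested, and none fell, with a median of 0.20. Mir134 of this array limits dendritic spine size in rat neurons, and others are induced by neuronal activity. Mir487b had 481.3, 506.5 and 576.4 CPM in Q175 and 371.4, 402.2 and 436.9 CPM in WT libraries, with no overlap and a log2 fold change of 0.35 ± 0.04 (FDR 3.09e-05). Mir411 had 4921, 5364 and 5763 CPM in Q175 and 4065, 4565 and 4799 CPM in WT libraries (0.25 ± 0.04, FDR 2.29e-04), and its neighbour Mir379 had 174.6, 193.1 and 214.6 CPM in Q175 and 150.5, 162.9 and 169.9 CPM in WT libraries (0.25 ± 0.04, FDR 4.48e-04). The groups did not overlap for either. Mir541 had 2009, 2219 and 2339 CPM in Q175 and 1502, 1779 and 2012 CPM in WT libraries (0.33 ± 0.05, FDR 3.55e-04), with a slight overlap. Mir496a (0.32 ± 0.07, FDR 0.00353), Mir154 (0.29 ± 0.05, FDR 6.19e-04) and Mir410 (0.25 ± 0.05, FDR 0.003) followed. The smallest rise of the region was that of Mir300 (0.15 ± 0.03, FDR 0.00437), where all Q175 libraries (lowest 3076 CPM) were nonetheless above all WT libraries (highest 3075 CPM). The other rises of the region were those of Gm25750 (0.22 ± 0.04), Mir485 (0.24 ± 0.04), Mir376c (0.20 ± 0.04), Mir369 (0.20 ± 0.04), Mir329 (0.22 ± 0.04), Mir667 (0.19 ± 0.04), Mir543 (0.18 ± 0.04), Mir381 (0.22 ± 0.06), Mir495 (0.19 ± 0.05) and Gm25252 (0.25 ± 0.07). Mir382 had 0.03 ± 0.06 (FDR 0.796) and Mir666 0.05 ± 0.05 (FDR 0.515).

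Outside the region, 16 of 302 tested microRNAs rose and 37 fell. Of 6 tested microRNAs in other imprinted loci 2 rose, against 12.1% of all tested, with a median of -0.05. Mir335, in an intron of Mest, a gene expressed from the paternal allele, had 310.7, 346.1 and 378.2 CPM in Q175 and 237.2, 267.3 and 285.7 CPM in WT libraries, with no overlap and a log2 fold change of 0.39 ± 0.04 (FDR 6.21e-06). Mir3099, in an intron of Usp29, another gene expressed from the paternal allele, had 43.2, 47.6 and 51.6 CPM in Q175 and 29.99, 35.3 and 42.5 CPM in WT libraries, again with no overlap (0.43 ± 0.07, FDR 3.55e-04). Mir1247 had -0.22 ± 0.09 (FDR 0.0944) and Mir298 -0.08 ± 0.04 (FDR 0.203).

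Of 26 tested microRNAs of the neuronal list 5 rose and 2 fell, against 12.1% higher and 10.7% lower over all tested, with a median of 0.04 against -0.01. Within lane 5 the counts were 3 and 0, and with upper quartile scaling 5 and 0. The 2 that fell were the hairpins of miR-129, whose calls were thus lost (upper quartile FDR 0.183 for Mir129-1 and 0.255 for Mir129-2). Mir137, which acts on neuronal maturation and whose human locus is linked to schizophrenia, had 15.2, 19.6 and 25.8 CPM in Q175 and 10.4, 13.8 and 16.2 CPM in WT libraries, with a slight overlap. Its log2 fold change of 0.55 ± 0.11 (FDR 0.00141) was the largest rise among microRNAs with a mean of at least 10 CPM, and it was 0.53 ± 0.12 with a lane term. Mir218-2, from an intron of Slit3, had 817.1, 910.3 and 1048 CPM in Q175 and 672.0, 721.2 and 788.5 CPM in WT libraries, with no overlap (0.34 ± 0.04, FDR 3.92e-05). Mir218-1, which gives the same mature miR-218-5p from another chromosome, had 39, 70.5 and 115.0 CPM in Q175 and 48.5, 86.4 and 111.5 CPM in WT libraries (-0.19 ± 0.21, FDR 0.599). Mir488 from Astn1 (0.26 ± 0.07, FDR 0.0138) and Mir153 from Ptprn2 (0.21 ± 0.06, FDR 0.0127) also rose.

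Mir128-1 and Mir128-2 give the same mature miR-128-3p, which lowers the excitability of mouse neurons. Mir128-1 had 7821, 8239 and 9068 CPM in Q175 and 7109, 7565 and 7982 CPM in WT libraries (0.14 ± 0.03, FDR 0.00695). Mir128-2 had 0.10 ± 0.06 (FDR 0.23), and 0.18 ± 0.04 with a lane term (FDR 0.00285). All 6 tested miR-181 hairpins had a positive value and 1 rose, against 12.1% of all tested. This was Mir181d, with 1389, 1425 and 1485 CPM in Q175 and 1166, 1228 and 1426 CPM in WT libraries (0.20 ± 0.03, FDR 6.11e-04). Its neighbour Mir181c had 0.11 ± 0.06 (FDR 0.23). A list of 8 microRNAs was taken from the study's text, which names others too (Mir369 and Mir543, which rose, among them). In it 3 rose and 3 fell, and as the study chose them on these samples the count is no independent evidence.

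Other rises outside the region were those of Mir671 (0.19 ± 0.04, FDR 0.00365), of Mir210, which is induced by low oxygen (0.22 ± 0.06, FDR 0.0155), and of Mir3963 (0.40 ± 0.13, FDR 0.0379). The call of Mir3963 was lost when any 1 of 10 libraries was left out (FDR up to 0.0802). On the X chromosome Mir672 (0.42 ± 0.13, FDR 0.022) and Mir547 (0.66 ± 0.20, FDR 0.022) rose at low levels, and without Q175 M2 the call of Mir672 was lost (FDR 0.0501). The other falls were those of Mir598 (-0.21 ± 0.05), Mir221 (-0.20 ± 0.05), Mir101a (-0.20 ± 0.06), Mir328 (-0.14 ± 0.04), Mir708 (-0.19 ± 0.06), Gm25301 (-0.12 ± 0.04) and Mir151 (-0.08 ± 0.03). Over the whole comparison, 63 of the 79 calls held without each of the 16 libraries in turn. Beside those named with their values, the calls of Mir221, Mir328, Mir708, Mir151, Mirlet7g and Gm25301 were lost without at least 1 library, with a highest FDR of 0.0569, 0.0503, 0.0591, 0.0736, 0.0964 and 0.0671.

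**Figure D4:**
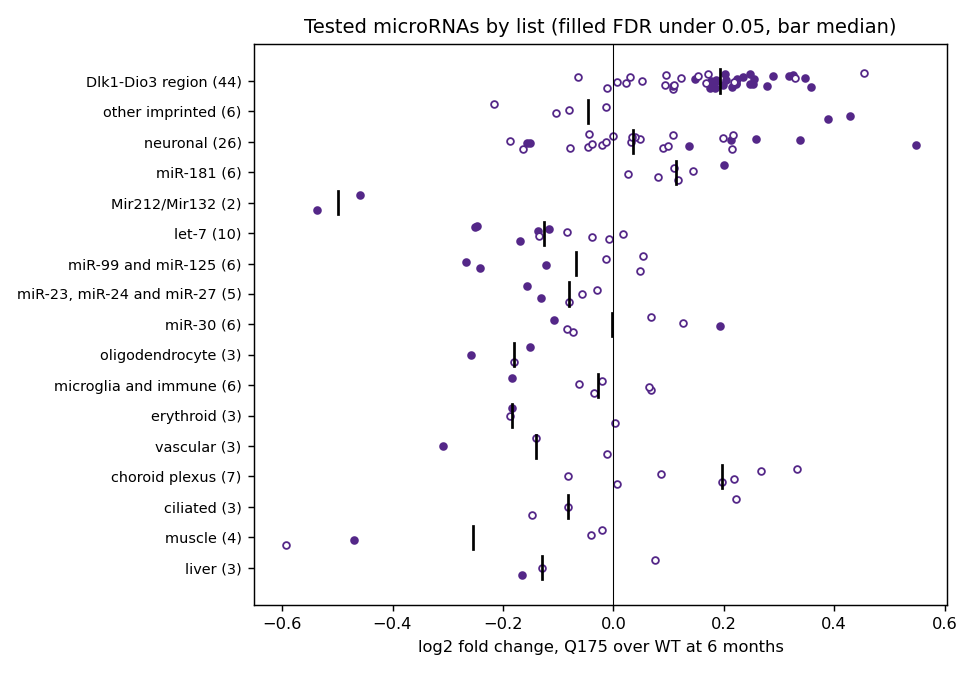
Log2 fold change of Q175 over WT at 6 months (horizontal axis) for the tested microRNAs of 17 lists (vertical axis, number tested in brackets), filled at an FDR under 0.05, with the list median as a black bar. The Dlk1-Dio3 median is 0.19 and the let-7 median -0.12, and choroid plexus and ciliated lists have no filled point.

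Lists that mark other cell types, in the cerebellum or in other tissues, were counted in the same way. Their counts stand against 12.1% higher and 10.7% lower over all tested. Whole tissue was measured, so a lower number of cells of a type and less of a microRNA per cell cannot be told apart. Of 3 tested oligodendrocyte microRNAs, which drive myelination in mice, 2 fell, against 10.7% of all tested, with a median of -0.18. The count was 0 within lane 5 (FDR 0.146 for Mir219a-2 and 0.244 for Mir338) and 1 with upper quartile scaling, where Mir338 lost its call. Mir219a-2 had 349.2, 382.5 and 439.1 CPM in Q175 and 416.7, 448.8 and 529.7 CPM in WT libraries (-0.26 ± 0.06, FDR 0.00448), and Mir338 had 2606, 2744 and 2959 CPM in Q175 and 2651, 3104 and 3347 CPM in WT libraries (-0.15 ± 0.04, FDR 0.0127). The third, Mir219a-1, had -0.18 ± 0.12 (FDR 0.412). The summed level of the list was 2961 to 3373 CPM in Q175 and 3095 to 3883 CPM in WT libraries. Of 6 tested microglia and immune microRNAs Mir21a fell, a microRNA that is broadly expressed and induced by injury. It had 1520, 1685 and 1716 CPM in Q175 and 1787, 1842 and 2116 CPM in WT libraries, with no overlap (-0.18 ± 0.04, FDR 0.00247). Mir223, which marks myeloid cells, had 0.07 ± 0.15 (FDR 0.82), and Mir146 0.06 ± 0.06 (FDR 0.546).

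Other families had no call. None passed among 4 tested miR-29 members (median 0.08), 3 of miR-26 (-0.07), 6 of miR-15 and miR-16 (0.08), 10 of Mir17-92 and its paralogs (0.02), 5 of the Clcn5 intron (-0.09), 4 mirtrons (-0.01) and 3 Hox-linked microRNAs (-0.20). The mirtron Mir1224 had 0.28 ± 0.10 (FDR 0.0516). Its FDR was 0.0155 with a lane term, 0.0486 with upper quartile scaling and 0.0801 within lane 5. With a lane term 1 miR-26 member fell. With TMM computed outside the Dlk1-Dio3 region 1 member of Mir17-92 and its paralogs and 1 of miR-15 and miR-16 rose.

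Of 3 tested erythroid microRNAs Mir486 fell (-0.18 ± 0.05, FDR 0.0127), while Mir451a, the most specific to red cells, had 164.4, 175.8 and 208.9 CPM in Q175 and 155.1, 175.8 and 210.3 CPM in WT libraries (0.00 ± 0.07, FDR 0.973). Mir144 had -0.19 ± 0.09 (FDR 0.174). Of 3 tested vascular microRNAs Mir143 of smooth muscle fell (-0.31 ± 0.10, FDR 0.0314), with no call under the lane term (FDR 0.12) or when any 1 of 7 libraries was left out (FDR up to 0.0671). The endothelial Mir126a had -0.01 ± 0.04 (FDR 0.899), and Mir145a, the neighbour of Mir143, had -0.14 ± 0.05 (FDR 0.0573). In the muscle list Mir133a-1 fell. It had 162.6, 175.4 and 208.5 CPM in Q175 and 208.2, 261.2 and 303.2 CPM in WT libraries, with -0.47 ± 0.09 (FDR 0.00141), while Mir133b had -0.04 ± 0.16 (FDR 0.9), Mir206 -0.02 ± 0.08 (FDR 0.9) and Mir1a-1 -0.59 ± 0.22 (FDR 0.0668). In the liver list Mir192 fell (-0.16 ± 0.04, FDR 0.0127), and its neighbour Mir194-2 had 0.07 ± 0.07 (FDR 0.542).

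Choroid plexus and ciliated cell microRNAs differed widely between libraries of the same group, and none of their 10 tested members was called. The summed level of the choroid plexus list was 15406 to 23441 CPM in Q175 and 15430 to 22097 CPM in WT libraries, and that of the ciliated list was 409.4 to 1863 CPM in Q175 and 490 to 1951 CPM in WT libraries. The first principal component of the 16 libraries (44.9% of variance, 0.8% of it explained by line) ran with both sums, with a Spearman rho of -0.95 for the choroid plexus and -0.96 for the ciliated list over the 16 libraries, which share tissue and age. Of the sensory Mir183 cluster, Mir182 had 531.6, 696.8 and 1080 CPM in Q175 and 546.3, 1331 and 1855 CPM in WT libraries (-0.75 ± 0.27, FDR 0.0524). The miR-200 family of epithelium and olfactory neurons was low in most libraries and highest in Q175 M2. Mir141, its single tested member, had 0.194, 2.322 and 27.8 CPM in Q175 and 0.5171, 0.7874 and 1.859 CPM in WT libraries, a log2 fold change of 2.46 ± 0.71 (FDR 0.0184). Without Q175 M2 the log2 fold change was 1.60 and the call was lost (FDR 0.0546), and with a lane term it was 1.85 ± 0.79 (FDR 0.107). The summed level of the family was 109.6 CPM in Q175 M2. In Q175 M1, F3, F4, F1 and M3 it was 17.57, 17.21, 10.61, 9.715 and 6.084 CPM. In Q175 F2 and M4 it was 5.525 and 1.164 CPM, against 2.24 to 5.63 CPM in WT libraries. Whether these cell types had a part in the differences described above was not tested.

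The effect, that is the log2 fold change of Q175 over WT, was then set beside those of the same line at 2 and 10 months, where 8 libraries of Q175 at each age, 6 of WT at 2 months and 8 of WT at 10 months were of the other library series. WT libraries F3 and M1 of 2 months were left out for low connectivity. In a fit over all 3 ages, 88 of 419 microRNAs were called at 6 months (21.0%), 99 at 10 months (23.6%) and none at 2 months (0.0%). Age and library series cannot be told apart. Of the 79 microRNAs called at 6 months, 62 had the same sign at 2 months and 76 at 10 months, and 64 were called in the same direction at 10 months and none in the opposite one. For the 42 that were higher the median log2 fold change was 0.06 at 2 months and 0.30 at 10 months, and for the 37 that were lower it was -0.02 and -0.21.

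In 9 of 419 microRNAs (2.15%) the effect at 6 months differed from that at 2 months, with 3 more positive and 6 more negative at 6 months. At 2 months Mir212 had 239.7, 270.9 and 304.7 CPM in Q175 against 240.4, 248.0 and 284.5 CPM in WT libraries, so the groups overlapped. At 10 months it had 116.8, 141.2 and 165.7 CPM in Q175 against 173.6, 210.6 and 239.3 CPM in WT libraries. The log2 fold change, in order of age, was 0.09 ± 0.06, -0.55 ± 0.06 and -0.53 ± 0.06, and that of 6 months minus that of 2 months was -0.64 ± 0.09 (FDR 1.99e-06). In Mir132 the difference was -0.49 ± 0.07 (FDR 2.58e-06), with an effect of 0.01 ± 0.05, -0.47 ± 0.05 and -0.38 ± 0.05 at 2, 6 and 10 months. Mir344-2 had -0.51 ± 0.09 (FDR 1.11e-04) and Mirlet7i -0.25 ± 0.06 (FDR 0.0126). Mir3099 (0.46 ± 0.11), Mir127 (0.25 ± 0.06) and Mir335 (0.21 ± 0.06) had a more positive effect at 6 months, and Gm25927 (-0.21 ± 0.06) and Mir425 (-0.22 ± 0.06) a more negative one. Among these 9 the effect at 2 months was largest in Mir335, 0.16 ± 0.04 (FDR 0.172). Lanes were unbalanced at 2 months too, with most Q175 libraries and most of the WT libraries used in different lanes. With lane terms the calls were Mir212, Mir132, Mir344-2, Mirlet7i and Mir320, all more negative at 6 months. Those of Mir3099, Mir127, Mir335, Gm25927 and Mir425 were lost. Without WT M2 of 2 months the FDR of Mirlet7i was 0.0531. The call of Mir335 was lost when any 1 of 8 of the 30 libraries of 2 and 6 months was left out, that of Gm25927 with any 1 of 21 and that of Mir425 with any 1 of 24 (FDR up to 0.0668, 0.117 and 0.121).

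**Figure D5:**
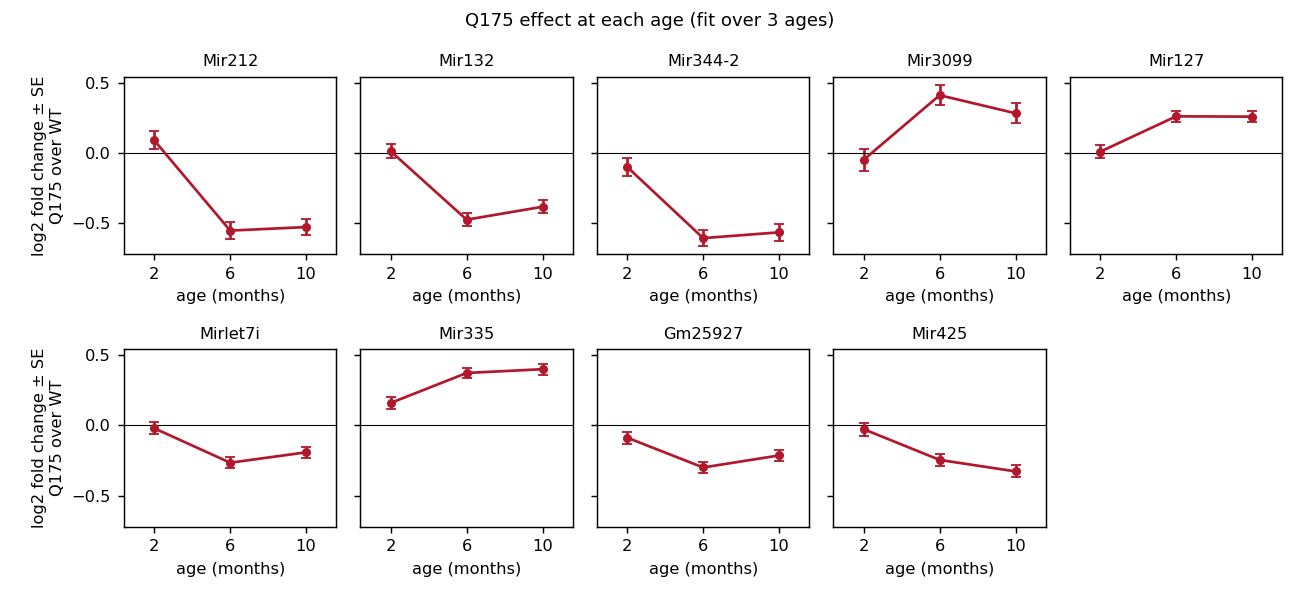
Log2 fold change of Q175 over WT with its SE (vertical axis) at 2, 6 and 10 months (horizontal axis) in the fit over 3 ages, for the 9 microRNAs whose effect differed between 6 and 2 months. Effects at 6 and 10 months lie on the same side of 0 in all 9, and in each the effect at 2 months is nearer 0 than either.

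Between 6 and 10 months no effect differed (0 of 419, 0.0%, in edgeR, with 30 at an unadjusted p under 0.05, and 1 in DESeq2). The lowest p values belonged to the unnamed feature ENSMUST00000175457 (-2.99 ± 0.92), Mir31 (-0.39 ± 0.13) and Mir135b (0.53 ± 0.18), each at an FDR of 0.438. The unnamed feature was also the 1 call in DESeq2. At 6 months its medians were near the floor, at 0 CPM in Q175 and 0.6192 CPM in WT libraries. At 10 months, in the other library series, they were 51.04 and 55.82 CPM. Without Q175 M4 of 10 months 3 microRNAs passed, Mir429, Mir200b and Mir141, all of the miR-200 family. The effects at both ages are not shown to be equal by this.

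The effect did not differ detectably between females and males at 6 months. No microRNA passed the test of the difference (0 of 346, 0.0%, in edgeR, with 7 at an unadjusted p under 0.05, and 0 in DESeq2). All 79 called microRNAs had the same sign in the 4 females and the 4 males of each group. The 79 were called with both sexes together, so this is no independent evidence. Mir127, with 0.37 ± 0.04 in females and 0.19 ± 0.04 in males, was among the 3 lowest p values (difference 0.18, FDR 0.987).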

How the data were processed

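Small RNA of cerebellum was sequenced by the authors as strand-specific 36-nt single-end reads and aligned to mm10 with STAR, and the deposited values are estimated counts per Ensembl microRNA transcript from HTSeq, of which 12.2% were fractional. The step that made them so is not given in the sources used here. RPKM values, as deposited by the authors, served only in an alternative. Counts were rounded, filtered with filterByExpr (346 of 1626 features kept), scaled by TMM and tested with edgeR 4.0.16 (R 4.3.3), with sex as a covariate, in both directions, with Benjamini-Hochberg adjustment. Reads of 398 features without a GENCODE M21 entry made up 0.268% of counts. The contrasts of ages used libraries with a connectivity Z.k above -5, and the lowest of the 16 libraries of 6 months was -2.45. Within the Q175 group and within the WT group of 6 months no library was a copy of another (56 pairs compared). Alternatives covered scaling, filters, DESeq2 1.42.0, limma 3.58.1 on log2(RPKM + 1), lane terms, the replicate block and each library left out. Named microRNAs were the 12 largest rises and 12 largest falls with a mean of at least 10 CPM and the members of lists with the lowest p. To these were added the hairpins of Mir484, Mir128, Mir218 and Mir181d, which the study's text names, and Mir137, which it does not name. Others named were chosen after their values were seen. The microRNAs, lists and comparison were chosen with earlier results of these data known. Per the study's methods, mice of a line and sex came from different litters. The fitting scripts were tested on simulated data.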

Additional observations from a re-analysis of the deposited data

Results flagged for a closer look

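In 232 groups of 8 libraries (116 named microRNAs in Q175 and in WT), the highest or lowest library stood apart 20 times by Dixon's criterion, which chance gives in about 5% of groups. Among Q175 libraries these were M4 for Gm25927 (1808 CPM) and Mirlet7i (6743 CPM), M3 for Mir195a (2404 CPM), F4 for Mir362 (12.73 CPM), M1 for Mir501 (79.75 CPM), and M2 for Mir141 (27.81 CPM) and Mir96 (6.953 CPM). Among WT libraries they were M1 for Mir665 (17.11 CPM), Mir16-1 (14419 CPM), Mir195a (3132 CPM) and Mir130a (761.9 CPM), and M4 for Mir154 (82.66 CPM). WT F4 stood apart for Mir125a (31856 CPM), WT F3 for Mir29b-1 (56.81 CPM) and WT F1 for Mir144 (20.24 CPM). WT M2 did so for Mir181a-1 (7045 CPM), Mir181c (16887 CPM), Mir26a-1 (3796 CPM), Mir486 (28233 CPM) and Mir192 (4716 CPM).

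The log2 fold change of Q175 over WT differed between 6 and 2 months in 9 microRNAs in edgeR's test of that difference. It was more negative at 6 months in Mir212 (-0.6436), Mir132 (-0.4876), Mir344-2 (-0.5072), Mirlet7i (-0.2456), Gm25927 (-0.2122) and Mir425 (-0.2189). It was more positive in Mir3099 (0.4601), Mir127 (0.2522) and Mir335 (0.2137). Age and library series cannot be told apart in these differences. With lane terms the calls of Mir3099, Mir127, Mir335, Gm25927 and Mir425 were lost.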

How the results depend on the processing

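The 79 calls at 6 months (42 higher, 37 lower) became 45 within lane 5 alone, with 15 lower, and 15 were lower with upper quartile scaling. The replicate block gave 82 calls, 47 higher and 35 lower, 76 of them among the 79, and the same numbers in both groups did not mark shared deviations (correlations of -0.44 to 0.41). Leaving out 1 library at a time gave 69 to 88 calls, 39 to 49 higher and 29 to 46 lower. For the difference of 6 minus 2 months, 9 calls became 19 with DESeq2, 15 with RLE, 5 with no filter, 19 with all libraries kept and 5 with lane terms, which were added after seeing the data, and 6 to 16 without 1 library. For 6 minus 10 months, 0 calls became 1 with DESeq2, and 0 to 3 without 1 library. For the difference between sexes the count was 0 without each library in turn (0 to 0). Among 116 named microRNAs, 23 lost their call within lane 5, 12 with upper quartile scaling and 6 with a lane term, and none changed direction with a call. The causes were not tested. Low counts limit Mir141, at a median of 0.7874 CPM in WT libraries.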
